A study of Mus musculus with 8 samples.

Results

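The genes described here are 9 cytochromes P450 of the mouse: Cyp2a5, Cyp2a12 and Cyp2a22, Cyp2d10, Cyp2d22 and Cyp2d26, Cyp2f2, Cyp2j5, and Cyp2u1. They were taken by their symbols from the 17810 genes of the deposited table, and all 9 were found there and passed the expression filter. Their estimated counts were read in the livers of 4 WT and 4 HKO mice. HKO mice carried miR-33 loxP/loxP alleles and an Albumin-Cre transgene, which removes miR-33 in hepatocytes; whether this Cre also acts in cholangiocytes was not tested here. WT mice were their littermates, and whether these also carried loxP alleles was not given in the sources used here. All mice were males aged 5 months, had eaten chow until 8 weeks of age and had then spent 3 months on CD-HFD, a diet rich in fat and free of choline, so no chow-fed group enters these comparisons. The question of the comparison was how the absence of hepatocyte miR-33 changes gene expression in the early, steatotic stage of the disease. miR-33 itself was not analysed in these libraries, so the genotype labels were not checked against it.

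Cytochromes P450 of family 2 are haem enzymes of the endoplasmic reticulum that insert an oxygen atom into drugs, steroids, fatty acids and plant compounds, with electrons passed on by P450 oxidoreductase. The hepatocyte is their main site in the body, and several differ between male and female mice and between the periportal and pericentral ends of the lobule. In the mouse the Cyp2a, Cyp2d and Cyp2j genes stand in tandem clusters of close copies, whereas Cyp2f2 and Cyp2u1 are single genes of their subfamilies. The close copies bear on the measurement, because a short read from a stretch that 2 copies share belongs to either of them.

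The Cyp2a sequences are shown first because the genes that changed are copies of genes that did not pass the test. On GRCm38, Cyp2a5 lies on chromosome 7 from 26835339 to 26843264 on the plus strand, Cyp2a12 from 27029090 to 27036815 on the plus strand, and Cyp2a22 from 26931631 to 26939386 on the minus strand between them. Cyp2a4, which is not one of the 9, lies at 26307192 to 26315088 on the plus strand of the same chromosome. The 250 bases before the start of each gene, from RefSeq promoters on GRCm38.p6, are printed 5′ to 3′ on the strand of the gene: chr7:26835089-26835338 (+) for Cyp2a5, chr7:26306942-26307191 (+) for Cyp2a4, chr7:27028840-27029089 (+) for Cyp2a12 and chr7:26939387-26939636 (-) for Cyp2a22. Capitals mark the bases that differ from the near copy or have no counterpart within its printed window, since the starts of the windows are shifted against each other, with Cyp2a5 set against Cyp2a4 and Cyp2a12 against Cyp2a22.

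Cyp2a5: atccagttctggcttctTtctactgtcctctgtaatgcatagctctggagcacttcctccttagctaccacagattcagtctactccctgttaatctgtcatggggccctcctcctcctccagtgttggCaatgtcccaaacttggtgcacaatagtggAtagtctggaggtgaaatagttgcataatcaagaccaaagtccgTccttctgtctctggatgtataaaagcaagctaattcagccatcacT
Cyp2a4: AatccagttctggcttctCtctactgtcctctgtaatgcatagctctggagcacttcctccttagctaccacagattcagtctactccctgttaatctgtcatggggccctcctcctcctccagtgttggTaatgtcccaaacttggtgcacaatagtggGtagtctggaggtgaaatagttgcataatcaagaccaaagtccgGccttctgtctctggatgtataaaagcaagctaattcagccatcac
Cyp2a12: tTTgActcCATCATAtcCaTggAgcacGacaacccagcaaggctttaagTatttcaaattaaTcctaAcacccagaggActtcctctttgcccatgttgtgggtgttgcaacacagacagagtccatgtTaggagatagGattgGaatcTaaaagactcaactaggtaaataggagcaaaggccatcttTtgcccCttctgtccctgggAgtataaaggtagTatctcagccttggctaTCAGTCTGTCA
Cyp2a22: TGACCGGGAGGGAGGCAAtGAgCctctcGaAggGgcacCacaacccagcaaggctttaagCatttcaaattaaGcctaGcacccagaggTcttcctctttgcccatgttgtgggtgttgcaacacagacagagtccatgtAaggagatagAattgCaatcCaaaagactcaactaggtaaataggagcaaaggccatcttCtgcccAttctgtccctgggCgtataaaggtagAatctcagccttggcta

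The upstream stretches of Cyp2a5 and Cyp2a4 differed at 4 aligned bases, an identity of 98.4%. Those of Cyp2a12 and Cyp2a22 were 89.1% identical over 239 aligned columns, with 19 mismatches and 7 gap columns. The longest protein-coding transcripts were 98.2% identical between Cyp2a5 and Cyp2a4 and 96.1% between Cyp2a12 and Cyp2a22, against 73.5% between Cyp2a5 and Cyp2a12. The letters TATAAA, which the TATA-binding protein recognises, occurred on either strand in the window of all 4 Cyp2a genes, 29 bases before the start of Cyp2a5, 28 before Cyp2a4, 39 before Cyp2a12 and 28 before Cyp2a22. They also occurred 31 bases before the starts of Cyp2d10 and of Cyp2d26 and 128 bases before that of Cyp2j5, and 12.37% of the 32851 promoter windows of this length hold them. CAAAGT, the core of many HNF4A sites, was found before Cyp2a5, Cyp2a4 and Cyp2d26 and in 12.55% of all windows. TTGCNNAA, the core of many C/EBP sites, was found before Cyp2a5 and Cyp2a4 and in 9.56% of all windows. AGGTCA, a core bound by nuclear receptors, was found before Cyp2f2 and Cyp2j5 and in 14.02% of all windows. TTCNNNGAA, the STAT consensus, was in none of the windows of the members with a promoter entry or of Cyp2a4 and in 7.02% of all windows. The windows of Cyp2a22 and Cyp2a12 held TATAAA and no other of these motifs, and no match overlapped a match of another motif. Of the 9 members, 7 had a promoter entry, all but Cyp2d22 and Cyp2u1.

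The mature miR-33-5p of RefSeq, which the HKO hepatocytes lack, is shown with its seed, bases 2 to 8, in capitals. Its gene lies at chr15:82198122-82198190 of GRCm38.p6.

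miR-33-5p: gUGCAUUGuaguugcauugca

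The matches to this seed in a transcript, CAATGCA for bases 2 to 8 and AATGCAA for bases 2 to 7 followed by an A, were counted over the 3′ UTR of each member, taking the longest one annotated. The count was 0 in all 9 members, whose 3′ UTRs run from 76 bases in Cyp2d26 to 2688 bases in Cyp2u1, and 0 in the 204 bases of Cyp2a4. The share of all 3′ UTRs that hold such a match was not computed, so how unusual a count of 0 is was not tested. The Cyp2d genes share chromosome 15 with the miR-33 gene and lie 172.3 kb (Cyp2d22), 204.7 kb (Cyp2d10) and 591.9 kb (Cyp2d26) from it, measured to the nearest end of each gene.

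How far the copies can be told apart was measured by cutting each transcript into every window of 75 bases, the read length given in the labels, and asking which windows occur unchanged in another gene. The share was 25.53% for Cyp2a5 and 26.68% for Cyp2d10, whose main partners were Cyp2a4 and Cyp2d11. It was 14.31% for Cyp2a12 and 13.36% for Cyp2a22, all of it with each other. Cyp2d26 shared 3.81% and Cyp2d22 2.3% of their windows, Cyp2u1 0.21%, and Cyp2f2 and Cyp2j5 none. With windows of 45 bases, the cycle number also given in the labels, the shares rose to 45.2% for Cyp2a5, 43.77% for Cyp2d10, 30.18% for Cyp2a12 and 28.2% for Cyp2a22. The deposited estimates of the Cyp2a and Cyp2d members were fractional, by more than 0.005 from a whole number, in 6 to 8 of the 8 livers, as reads divided between genes leave them, and those of Cyp2f2, Cyp2j5 and Cyp2u1 were whole numbers in every liver. Levels of single Cyp2a and Cyp2d genes are therefore uncertain by the reads they share, in both genotypes, and the part of this sharing in the differences between genotypes was not tested beyond the sums given with each subfamily.

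**Figure D1:**
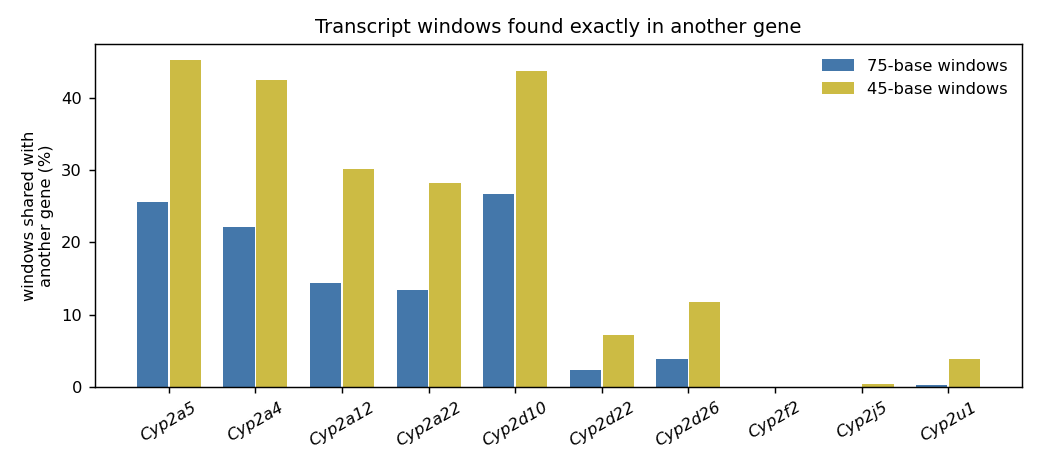
Share of the windows of 75 bases (blue) and 45 bases (yellow) of each gene's longest protein-coding transcript, in percent, that occur unchanged in a transcript of another gene. The Cyp2a genes and Cyp2d10 stand between 13.36% and 26.68% at 75 bases, and Cyp2f2, Cyp2j5 and Cyp2u1 near 0.

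The libraries held 12174339 to 18319736 estimated counts in WT and 12509201 to 18735785 in HKO livers, so that 3 counts correspond to 0.149 to 0.2551 CPM (counts scaled to a common library size, after TMM). Each liver was 1 mouse. In the column names the numbers after the letter S ran in separate stretches by genotype, so any effect of that order cannot be told apart from genotype. Another number in these names placed the WT livers between HKO livers. What these numbers stand for was not given in the sources used here. Of 6 hepatocyte markers 2 were called, both higher in HKO livers: Serpina1a at 2087 to 3042 CPM in WT livers and 3374 to 4293 CPM in HKO livers, and Tat at 394 to 635 and 794 to 1152 CPM. The summed level of the 6 was 84400 to 120000 CPM in WT livers and 73000 to 125000 CPM in HKO livers. Of 6 stellate cell and fibroblast markers Col1a1 was called, lower in HKO livers (10.3 to 26.8 against 1.28 to 3.39 CPM), and their sums were 321 to 434 and 277 to 394 CPM. None of 5 macrophage, 5 endothelial, 5 cholangiocyte or 5 lymphocyte markers was called, and of the last 2 lists only 2 and 1 were tested. The club cell markers Scgb1a1 and Scgb3a2 were not analysed here. HKO replicate 2 stood apart in cholangiocyte markers, with 16.9 CPM of Krt19 and 16.5 CPM of Epcam against at most 1.07 and 1.02 CPM in the other livers, and it was also highest in Krt7 (3.32 CPM) and Cftr (3.16 CPM). Of the 5 markers Sox9 differed, being highest in HKO replicate 3 (15.5 CPM) and at 7.87 CPM in HKO replicate 2 against 7.03 CPM in WT replicate 4. Values without this liver are given with Cyp2a22, Cyp2a12, Cyp2a5 and Cyp2a4. In bulk liver, fewer cells of a type and less RNA per cell cannot be told apart.

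Of the 9 members, 1 was called by edgeR's quasi-likelihood test at an adjusted p under 0.05, Cyp2a22, which was lower in HKO livers. Across the 12395 genes tested, 638 were called, 5.15% of them, with 3.44% called lower and 1.71% called higher in HKO livers. This number depends on the tool and its settings. The alternatives that kept all 8 livers and added no fold change threshold called 470 to 1014 genes. With a fold change above 1.5 required as well, the quasi-likelihood test of edgeR called 371. A single call among 9 genes is a value of that gene and not a result about the group. Cyp2a22 was also the 1 member whose 4 WT and 4 HKO values did not overlap, as for 12.5% of all genes tested. The log2 fold changes of HKO over WT were above 0 in 6 members and below 0 in 3, with a median of 0.09 against 0.01 over all genes tested. At an unadjusted p under 0.05 there were 2 members, Cyp2a22 and Cyp2d10.

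**Figure D2:**
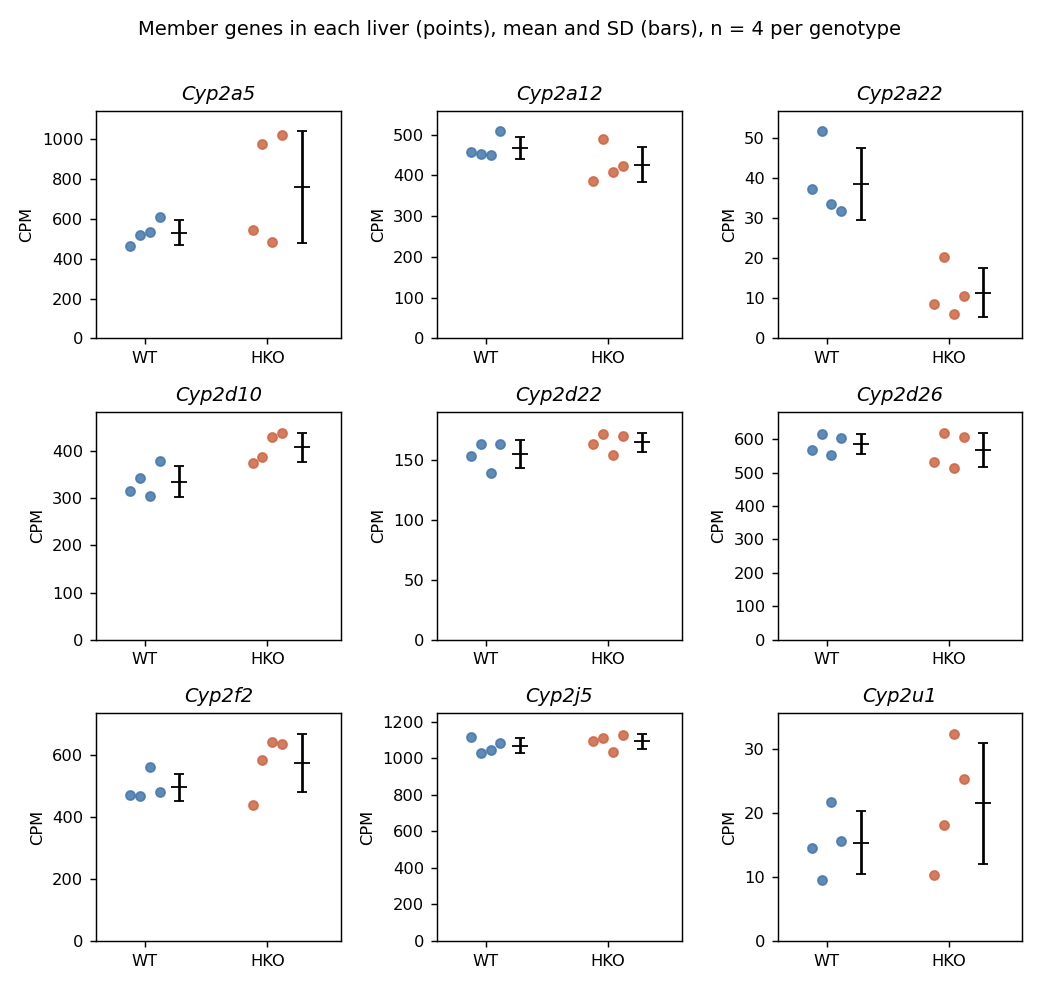
CPM of each of the 9 genes in every liver, 4 WT (blue) and 4 HKO (orange) mice, with the mean and SD of each genotype as a bar beside the points; each panel has its own axis starting at 0. Cyp2a22 is the panel in which no HKO liver (6.19 to 20.2 CPM) reaches the WT livers (31.7 to 51.7 CPM).

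Cyp2a22, one of the cluster of Cyp2a enzymes, was at 37.3, 51.7, 33.5 and 31.7 CPM in WT replicates 1 to 4 and at 8.70, 20.2, 6.19 and 10.6 CPM in HKO replicates 1 to 4. Every HKO liver thus lay below every WT liver, and the highest HKO liver was the one with cholangiocyte markers. The mean was 38.6 ± 9.06 CPM (SD, n = 4) in WT livers and 11.4 ± 6.13 CPM in HKO livers. This gave a log2 fold change of -1.77 (SE 0.37, 95% interval -2.63 to -0.90, edgeR adjusted p = 0.0417), a level 3.4-fold lower. DESeq2 (adjusted p = 2.54e-07) and limma-voom (adjusted p = 0.00644) called it as well. The call of edgeR lay close to its threshold and was lost when genes of low counts were kept in the test (adjusted p = 0.0762). Fits in which 1 liver was left out lost it in 7 of 8 cases, although the log2 fold change stayed between -2.19 and -1.55: the adjusted p was 0.106, 0.107, 0.0739 and 0.0649 without WT replicates 1 to 4, and 0.103, 0.0566 and 0.115 without HKO replicates 1, 3 and 4. Without HKO replicate 2 it was 0.00196.

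Cyp2a12, the near copy of Cyp2a22 and an enzyme that hydroxylates steroids and bile acids, was at 457, 453, 449.9 and 508 CPM in WT replicates 1 to 4. In HKO replicates 1 to 4 it was at 388, 489, 408 and 423 CPM. Of the HKO livers 3 lay below all WT livers, and HKO replicate 2 lay within them. The means were 467 ± 27.7 CPM (SD, n = 4) and 427 ± 43.9 CPM, and the log2 fold change of -0.13 (95% interval -0.33 to 0.07) was not past the threshold (edgeR adjusted p = 0.498). Leaving out HKO replicate 2 gave -0.20 (edgeR adjusted p = 0.291). The 2 copies added together, as a check on reads divided between them, came to 506 ± 24.6 CPM in WT livers and 438 ± 49.7 CPM in HKO livers. Cyp2a12 held most of that sum in every liver, so the sum hardly reflects Cyp2a22.

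Cyp2a5, the coumarin hydroxylase of mouse liver that also oxidises nicotine and bilirubin, was at 466, 518, 533 and 612 CPM in WT replicates 1 to 4. In HKO replicates 1 to 4 it was at 547, 978, 487 and 1025 CPM. The HKO livers formed a pair above all WT livers, replicates 2 and 4, and a pair within the WT range, replicates 1 and 3. Their highest value was 2.11 times their lowest, and the coefficient of variation was 37.1% in HKO against 11.4% in WT livers. The log2 fold change was 0.51 (SE 0.25, 95% interval -0.06 to 1.09) and was not past the threshold with edgeR (adjusted p = 0.317), DESeq2 (0.135) or limma-voom (0.309). The markers of cholangiocytes were high in 1 of the 2 high livers, replicate 2, and not in replicate 4, and their part in this spread was not tested. Leaving out HKO replicate 2 gave a log2 fold change of 0.37 (edgeR adjusted p = 0.499), and leaving out HKO replicate 4 gave 0.33 (0.531).

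Cyp2a4, the near copy of Cyp2a5 and a testosterone hydroxylase that is higher in female than in male mice, was the least abundant Cyp2a gene per kb in HKO livers, at a mean of 1.21 CPM per kb. It was at 37.9, 22.1, 23.8 and 9.72 CPM in WT replicates 1 to 4 and at 1.01, 4.09, 0.676 and 2.64 CPM in HKO replicates 1 to 4. The groups did not overlap, and the log2 fold change was -3.53 (95% interval -5.07 to -1.99, edgeR adjusted p = 0.0311), an 11.5-fold lower level. The HKO values lay above the 3 counts that limit detection. This call was kept without WT replicate 4 (adjusted p = 0.0204) and without HKO replicate 2 (0.0362) and lost without each of the other livers (0.0629 to 0.0893). DESeq2 (1.11e-05) and limma-voom (0.0197) also called Cyp2a4, and edgeR with the replicate number as a block did not (0.134). Cyp2a5 and Cyp2a4 added together came to 556 ± 49.4 CPM in WT livers and 761 ± 283 CPM in HKO livers, higher on average where Cyp2a4 was lower, and Cyp2a5 held most of that sum in every liver.

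The Cyp2a genes that fell were the minor ones. Cyp2a22 held 2.73% to 4.95% of the CPM of the 4 Cyp2a genes in WT and 0.687% to 1.36% in HKO livers, and Cyp2a4 held 0.836% to 3.80% and 0.0749% to 0.274%. Cyp2a5 held 46.7% to 52.7% in WT and 54.0% to 70.2% in HKO livers, and Cyp2a12 the rest. Summed over the 4 genes the level was 1061 ± 70.4 CPM (SD, n = 4) in WT livers and 1200.0 ± 320 CPM in HKO livers. Fitted as a single row, this sum had a log2 fold change of 0.18 (edgeR adjusted p = 0.623), the opposite sign to Cyp2a22, Cyp2a4 and Cyp2a12.

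**Figure D3:**
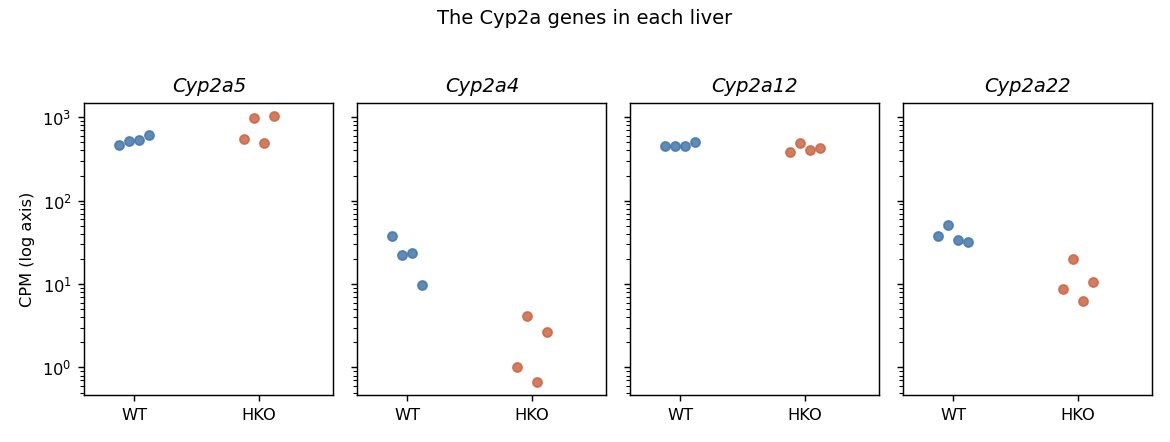
CPM on a log axis of the 4 Cyp2a genes in every liver of 4 WT (blue) and 4 HKO (orange) mice, 1 point per liver. Cyp2a4 and Cyp2a22 are separated by genotype, while Cyp2a12 and Cyp2a5, which hold most of the subfamily's counts, overlap.

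The 3 Cyp2d members lie on the minus strand of chromosome 15 of GRCm38, Cyp2d22 from 82370527 to 82380260, Cyp2d10 from 82402846 to 82407194 and Cyp2d26 from 82790107 to 82794245. Their human relative is CYP2D6, the drug oxidase known for its poor metabolisers. None of the 3 was past the threshold. Cyp2d10 was at 315, 343, 304 and 379.9 CPM in WT replicates 1 to 4 and at 375, 388, 429 and 439 CPM in HKO replicates 1 to 4. Of the HKO livers 3 lay above all WT livers, and HKO replicate 1 lay below WT replicate 4. Its log2 fold change of 0.28 (95% interval 0.07 to 0.49) had an unadjusted p of 0.0122 and an adjusted p of 0.122 with edgeR, 0.051 with DESeq2 and 0.115 with limma-voom. Cyp2d10 is also the member with the largest share of 75-base windows found in other genes.

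Cyp2d22, often set beside human CYP2D6, was at 153, 164, 139 and 163 CPM in WT replicates 1 to 4 and at 164, 172, 154 and 169.7 CPM in HKO replicates 1 to 4. The groups overlapped, at a log2 fold change of 0.09 (95% interval -0.08 to 0.27, edgeR adjusted p = 0.592). Cyp2d26 was at 567, 617, 553 and 604 CPM in WT replicates 1 to 4 and at 533, 619, 514 and 606 CPM in HKO replicates 1 to 4. Its HKO livers lay on both sides of the WT livers, 1 above and 2 below all of them, at a log2 fold change of -0.04 (95% interval -0.24 to 0.16, edgeR adjusted p = 0.856). The 10 Cyp2d rows of the table fitted as a sum had a log2 fold change of 0.22 (edgeR adjusted p = 0.27).

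Cyp2f2 lies on chromosome 7 from 27119955 to 27133660, near the Cyp2a cluster, and is known for the bioactivation of naphthalene in lung club cells and as a periportal gene of the liver. It was at 470.2, 467, 559 and 479 CPM in WT replicates 1 to 4 and at 438, 581, 639 and 634 CPM in HKO replicates 1 to 4. HKO replicates 2, 3 and 4 were above all WT livers and replicate 1 was below all of them. The means were 494 ± 43.8 CPM (SD, n = 4) and 573 ± 93.7 CPM, at a log2 fold change of 0.21 (95% interval -0.05 to 0.48, edgeR adjusted p = 0.376).

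Cyp2j5, an epoxygenase of arachidonic acid abundant in mouse liver and kidney, lies on chromosome 4 from 96627432 to 96664119 and varied least among the 9. It was at 1118, 1027, 1047 and 1086 CPM in WT replicates 1 to 4 and at 1094, 1113, 1033 and 1128 CPM in HKO replicates 1 to 4. The coefficient of variation was 3.79% in WT and 3.82% in HKO livers. This gave a log2 fold change of 0.03 (95% interval -0.15 to 0.21, edgeR adjusted p = 0.89), and turned to -0.06 when libraries were scaled by their total counts alone, which moved the median of all genes from 0.01 to -0.08. Cyp2u1, which hydroxylates long-chain fatty acids and is expressed in many tissues, lies on chromosome 3 from 131290491 to 131303227 and was the least abundant member per kb. It was at 14.5, 9.55, 21.7 and 15.6 CPM in WT replicates 1 to 4 and at 10.3, 18.1, 32.3 and 25.3 CPM in HKO replicates 1 to 4. HKO replicates 3 and 4 were above all WT livers, and its log2 fold change of 0.48 had a 95% interval of -0.42 to 1.38 (edgeR adjusted p = 0.566). With a liver left out, the log2 fold change of Cyp2u1 ranged from 0.21 (without HKO replicate 3) to 0.71 (without HKO replicate 1).

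**Figure D4:**
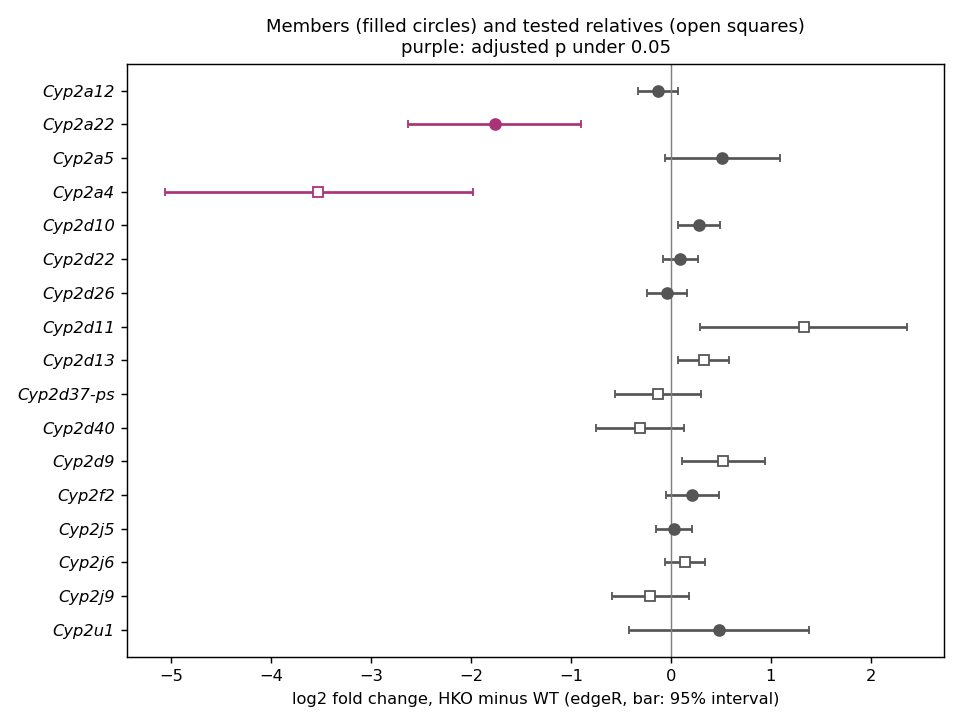
Log2 fold change of HKO over WT livers with its 95% interval from edgeR for the 9 members (filled circles) and the 8 tested relatives in their subfamilies (open squares), n = 4 livers per genotype. Cyp2a22 and Cyp2a4, drawn in purple, have an adjusted p under 0.05; the intervals of Cyp2d10, Cyp2d9, Cyp2d11 and Cyp2d13 leave out 0 before adjustment.

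Levels of different genes were compared as CPM per kb of the longest protein-coding transcript. The order below rests on that choice, with for instance 2769 bases for Cyp2d22 and 1648 for Cyp2d10, and shorter transcripts were not tried. It also rests on how shared reads were divided between the Cyp2a and Cyp2d genes. In WT livers Cyp2j5 was highest at 456 ± 17.3 CPM per kb (SD, n = 4), followed by Cyp2d26 at 344 ± 17.8 CPM per kb. Cyp2a12 (278 ± 16.5 CPM per kb), Cyp2f2 (265 ± 23.5 CPM per kb) and Cyp2a5 (264 ± 30.1 CPM per kb) came next and were not separated. Cyp2d10 followed at 203.5 ± 20.5 CPM per kb, then Cyp2d22 at 55.9 ± 4.22 CPM per kb, Cyp2a22 at 21.5 ± 5.04 CPM per kb and Cyp2u1 at 3.51 ± 1.14 CPM per kb. Over all 8 livers the ranges of neighbours in this order did not overlap between Cyp2j5 and Cyp2d26, between Cyp2d26 and Cyp2a12, between Cyp2d10 and Cyp2d22 and between Cyp2d22 and Cyp2a22. Cyp2a22 was above Cyp2u1 in 7 of the 8 livers. In HKO livers Cyp2j5 was again highest by its mean (466 ± 17.8 CPM per kb), and the mean of Cyp2a5 (377 ± 139.9 CPM per kb) stood above that of Cyp2d26 (334 ± 30.6 CPM per kb), with a highest liver of 509 CPM per kb against 481 for Cyp2j5. The mean of Cyp2a22 was 6.37 CPM per kb, near the 4.91 CPM per kb of Cyp2u1.

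Members of a subfamily were compared with each other by the log2 ratio of their levels within each liver, in 6 pairs, with an exact two-sided permutation test over the 70 allocations of livers to genotypes. With 4 livers per genotype the smallest p this test can give is 0.0286. The ratio of Cyp2a5 to Cyp2a22 was 3.80 ± 0.41 (SD, n = 4) in WT and 6.10 ± 0.42 in HKO livers on the log2 scale, a difference of 2.29 (exact permutation p = 0.0286, adjusted p = 0.0572 over the 6 pairs). The ratio of Cyp2a12 to Cyp2a22 differed by 1.72 between genotypes, with the same p values from the exact permutation test. That of Cyp2d22 to Cyp2d26 differed by 0.14 and was also without overlap, with the same p values. In the other 3 pairs, Cyp2a5 with Cyp2a12 (0.57), Cyp2d10 with Cyp2d26 (0.33) and Cyp2d10 with Cyp2d22 (0.19), the groups overlapped. Their adjusted p from the exact permutation test was 0.0685, 0.0685 and 0.0857. No pair was past the threshold after adjustment. The pairs without overlap already had the smallest p this test can give, so this does not show that their ratios were alike.

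The pattern of each member over the 8 livers was set against all other tested genes by the root mean square difference of standardised log2 CPM, where 0 means the same pattern. This is a description over 8 livers, 4 of each genotype, so a difference between genotypes in both genes counts towards their likeness, as does any shared effect of library depth. The genes most like Cyp2a22 were Slc22a27, a transporter of the organic anion family (0.117), Hadh, a mitochondrial enzyme of fatty acid oxidation (0.121), and Pitrm1, a mitochondrial peptidase (0.141). All 3 were lower in HKO livers and called by edgeR: Slc22a27 went from a mean of 25.6 CPM in WT to 2.56 CPM in HKO, Hadh from 499 to 329.8 CPM and Pitrm1 from 47.8 to 37.6 CPM. For Cyp2a5 the nearest were Zfp395 (0.257), Serpinb1a (0.267) and Gm3787 (0.294). For Cyp2a12 they were Pex7, a receptor for peroxisomal import (0.24), Dph3 (0.29) and Kif23 (0.343).

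For Cyp2d10 the nearest were Dxo (0.209), Rpap2 (0.22) and Cpb2, a plasma carboxypeptidase made by hepatocytes (0.235). For Cyp2d22 they were Zfp385b (0.321), Cyth2 (0.336) and Ddost (0.357), and for Cyp2d26 Bivm (0.243), Abhd14b (0.266) and Bag1 (0.293). Nr2f2, a nuclear receptor, was nearest to Cyp2f2 (0.23), before Rnaset2a (0.311) and Hcfc2 (0.328). Dstn (0.298), Cnn3 (0.309) and Eid1 (0.349) were nearest to Cyp2j5, and Stx5a (0.287), Tbc1d4 (0.33) and Smarce1 (0.343) to Cyp2u1. Among the members themselves the closest pair was Cyp2f2 and Cyp2u1 (0.371), both low in HKO replicate 1 and high in HKO replicate 3, and the next was Cyp2a12 and Cyp2a22 (0.708), the near copies. Apart from those nearest to Cyp2a22, none of the genes named for a member was past the threshold of edgeR.

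Of 17 other genes of the members' subfamilies, 12 had rows and 8 were tested, and Cyp2a4 was the 1 called. Cyp2d9, a testosterone hydroxylase that is higher in male mice, was at 440.5 ± 106 CPM (SD, n = 4) in WT livers and 634 ± 142 CPM in HKO livers, at a log2 fold change of 0.52 (edgeR adjusted p = 0.156). DESeq2 put it past the threshold (adjusted p = 0.0457), as did edgeR without WT replicate 4 (0.0306). Cyp2d11 was near the floor of detection at 0.492 ± 0.267 CPM in WT livers and 1.30 ± 0.559 CPM in HKO livers (log2 fold change 1.33, edgeR adjusted p = 0.142). Cyp2d13 was at 56.7 ± 7.54 and 71.2 ± 9.79 CPM, at a log2 fold change of 0.33 (adjusted p = 0.141). Cyp2d40 (-0.31), the pseudogene Cyp2d37-ps (-0.13), Cyp2j6 (0.14) and Cyp2j9 (-0.21) were given no call either, with adjusted p of 0.435 to 0.784. The Cyp2j rows of the table, 5 in all, fitted as a sum had a log2 fold change of 0.04 (edgeR adjusted p = 0.848). The median log2 fold change of the 8 relatives was 0.01, equal to that of all genes tested to 2 decimals.

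Of other genes of the same cytochrome P450 clan, outside the members' subfamilies, 6 of 12 listed genes were tested and Cyp1a2 was called. The Cyp2b and Cyp2c genes of the clan were not on this list. Cyp1a2, which oxidises caffeine and aromatic amines, rose from 151 ± 14.8 to 521 ± 165 CPM (SD, n = 4), a log2 fold change of 1.79 (edgeR adjusted p = 0.0046) that was called in all 8 fits with a liver left out. Cyp2e1, which oxidises ethanol, was higher in every HKO liver (12030 to 14230 CPM) than in every WT liver (9649 to 10750 CPM), and with a log2 fold change of 0.34 it was not past the threshold of edgeR (adjusted p = 0.0678) and was called by DESeq2 (0.00114). Cyp17a1, a steroid hydroxylase, was at 40.6 ± 20.3 and 23.6 ± 12 CPM (edgeR adjusted p = 0.517). The median of the 6 was 0.24.

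The list of electron donors and enzymes of haem synthesis, which also held Hmox1, Pgrmc1 and Pgrmc2, had 1 call among 15 genes tested. The call was Pgrmc2, so no electron donor or enzyme of haem synthesis on the list was called. Of the 15 log2 fold changes 12 were below 0, with a median of -0.19. Over all genes tested 5.15% were called and 5995 of 12395 were below 0, the background for this and the following lists. Pgrmc2, a haem-binding membrane protein, fell by 0.61 on the log2 scale, from 130.3 ± 22.0 to 85 ± 8.52 CPM (SD, n = 4, edgeR adjusted p = 0.0145), and lost its call without WT replicate 2 (0.0611). Its relative Pgrmc1 was at 2268 ± 314 and 1901 ± 171 CPM (edgeR adjusted p = 0.248). Cyb5a, cytochrome b5, was at 1064 ± 163 and 1086 ± 129 CPM (adjusted p = 0.936), and its direction changed with the scaling.

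Of 26 transcription factors and receptors known to act on hepatic Cyp2 genes, all tested, 4 were called, 2 in each direction, and the median was 0.04. Foxa3, a forkhead factor of the liver, rose from 17.4 ± 2.42 to 35.8 ± 7.59 CPM (SD, n = 4), a log2 fold change of 1.05 (edgeR adjusted p = 0.00399) called without each of the livers in turn. Hnf4a, which maintains the hepatocyte programme, rose from 446 ± 16.8 to 571 ± 56.6 CPM (log2 fold change 0.36, edgeR adjusted p = 0.0442). Nfe2l2, which encodes the oxidative stress factor NRF2, fell by 0.34 on the log2 scale from 130.2 ± 11.7 to 103 ± 3.09 CPM (edgeR adjusted p = 0.0321). Ppara, the receptor for fatty acids, fell by 0.33 from 671 ± 9.52 to 535 ± 35.1 CPM (edgeR adjusted p = 0.0409). None of the 4 overlapped between genotypes, as for 12.5% of all genes tested, and the calls of the last 3 lay near the threshold. With a liver left out, Hnf4a was called without HKO replicate 3 (adjusted p = 0.0242; 0.0568 to 0.135 without each other liver) and Nfe2l2 without WT replicate 4 (0.0317; 0.051 to 0.127 without each other liver). Ppara was called in none of the 8 such fits of edgeR (0.0526 to 0.132). Scaling by total counts also ended the call of Hnf4a (0.159), and keeping genes of low counts that of Ppara (0.058).

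Of the epoxide hydrolases and arachidonate enzymes, which act beside or after the epoxygenase Cyp2j5, 4 of 10 listed genes were tested, and the median was -0.03. Ephx1, the microsomal epoxide hydrolase, fell by 0.97 on the log2 scale from 330.4 ± 42.1 to 169 ± 21.3 CPM (SD, n = 4, edgeR adjusted p = 0.00107) and was called without each liver in turn. Ephx2, the soluble enzyme that hydrolyses epoxides of arachidonic acid, was at 963 ± 82.4 and 921 ± 98.1 CPM (edgeR adjusted p = 0.796), and Ptgs1 at 8.80 ± 1.19 and 10.1 ± 2.51 CPM (adjusted p = 0.609). Of 11 genes of bilirubin and coumarin handling beside Cyp2a5, Gsta1 was called, and 8 of the 11 log2 fold changes were below 0, with a median of -0.30. Gsta1, a glutathione transferase, fell by 3.85 on the log2 scale from 17.7 ± 6.06 to 1.23 ± 1.14 CPM (edgeR adjusted p = 0.0173). HKO replicate 3 held 0.169 CPM of it, at the 3 counts that limit detection, the log2 fold change was -4.74 without HKO replicate 1, and the call was lost without WT replicate 2 (0.0576), HKO replicate 2 (0.0517) or HKO replicate 4 (0.0578). Gstm1, which did not overlap between genotypes (787 to 1157 and 316 to 667 CPM), was not past the threshold of edgeR (adjusted p = 0.0855). It was called by DESeq2 (adjusted p = 0.0021) and by edgeR without HKO replicate 3 (0.0271). The bilirubin uptake carrier Slco1b2 was at 2932 ± 247 and 3031 ± 151 CPM (edgeR adjusted p = 0.844).

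Periportal and pericentral hepatocyte genes were counted because Cyp2f2 is a periportal gene and several family 2 enzymes are pericentral. Of 15 periportal genes 3 were called higher and 1 lower, with a median log2 fold change of 0.38, and of 15 pericentral genes 2 were called higher and 1 lower, with a median of 0.32. Cps1, the first enzyme of the urea cycle, rose from 2432 ± 638 to 5814 ± 842 CPM (SD, n = 4, log2 fold change 1.26, edgeR adjusted p = 0.00427), and Ass1 of the same cycle from 555 ± 117 to 969.7 ± 190.3 CPM (0.80, adjusted p = 0.0265). Pigr, the receptor that carries IgA into bile, rose from 1500.0 ± 114 to 2331 ± 361 CPM (0.64, adjusted p = 0.0124), and Hsd17b13, a lipid droplet enzyme, fell by 0.77 from 616 ± 107 to 361 ± 47.6 CPM (edgeR adjusted p = 0.00832). Among the pericentral genes Gulo, of ascorbate synthesis, rose from 274 ± 28.6 to 437.5 ± 26 CPM (0.67, edgeR adjusted p = 0.00231), Cyp1a2 rose as given, and the amino acid transporter Slc1a4 fell by 0.94 from 5.00 ± 1.23 to 2.59 ± 0.549 CPM (adjusted p = 0.041). The calls of Cps1, Hsd17b13, Gulo and Cyp1a2 held without each liver in turn. Pigr lost its call without WT replicate 2 (0.0562), Ass1 kept it without WT replicate 4 (0.00825) or HKO replicate 3 (0.00668) and was at 0.0561 to 0.0837 otherwise, and Slc1a4 kept it without WT replicate 3 (0.0312) and was at 0.0515 to 0.128 otherwise. Limma-voom did not call Slc1a4 (0.0683).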

How the data were processed

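RNA was measured in 8 livers, 4 per genotype, taken when the mice had spent 3 months on CD-HFD. The deposited values are estimated counts for each gene, which the authors made by expectation-maximization in Partek, with no normalization; the submitters' processing notes also name STAR, and versions were not given in the sources used here. Coordinates are on GRCm38, with the listed stop taken as 1 past the last base. The labels name both rRNA depletion and a small RNA kit, so the library type is uncertain. No column was left unmapped.

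Estimated counts were rounded and tested with edgeR 4.0.16 in R 4.3.3: TMM scaling, the default expression filter (minimum count 10), robust dispersions, the quasi-likelihood test, and Benjamini-Hochberg adjustment over 12395 genes at 0.05. The study's text gives this threshold; which test it used was not found. The common biological coefficient of variation was 0.18. The alternatives tried were limma-voom (limma 3.58.1), DESeq2 1.42.0, RLE and total count scaling, no filter, a minimum of 10 counts in each liver, a replicate block, an added fold change of 1.5, summed subfamily rows, and each liver left out. CPM uses TMM-scaled totals; log2 CPM adds a prior count of 2 (0.5 as alternative). Pairs were tested with scipy 1.17.1. Fits were tested on simulated data. Sequences were compared with biopython 1.88, using RefSeq promoters and GENCODE transcripts.

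Named are all members, every tested gene of their subfamilies, up to 4 genes per list (called genes with the largest change, then the most abundant), and the 3 genes nearest each member. The members and lists were chosen with earlier results of these data known.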

Additional observations from a re-analysis of the deposited data

Results flagged for a closer look

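In 78 groups of 4 livers, those of the 9 members and 30 named genes in each genotype, a liver was taken as far from the others when its gap to the nearest, as a share of the group's range, exceeded Dixon's critical value. This held in 6 groups, against 3.9 given by chance at 1 in 20. Among the members, WT replicate 4 had 508 CPM of Cyp2a12 while the other WT livers held 449.9 to 457 CPM, and WT replicate 3 had 559 CPM of Cyp2f2 while the others held 467 to 479 CPM. Among the other genes, WT replicate 4 had 597 CPM of Cyp2d9 (366 to 400.1 CPM in the others) and 173 CPM of Cyp1a2 (143.2 to 144.5 CPM in the others). Cyp2j6 was at 159 CPM in HKO replicate 3 (134 to 136 CPM in the others) and Hnf4a at 471 CPM in WT replicate 3 (434 to 441 CPM in the others).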

How the results depend on the processing

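One member was called with edgeR, DESeq2, limma-voom, RLE or total count scaling, at least 10 counts in every liver and a fold change above 1.5, and it was Cyp2a22 each time. With no expression filter edgeR called 0 members, with 2 (Cyp2a22 and Cyp2d10) at an unadjusted p under 0.05; DESeq2 and limma-voom, which each called 1, were run on the filtered genes only. With each liver left out, the number called ranged from 0 to 1 and that at an unadjusted p under 0.05 from 2 to 5. Leaving out a liver also lowered the calls over all genes from 638 to between 222 and 599.

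Over the lists, 15 genes were called, 24 with DESeq2 and 6 to 17 with a liver left out. With the replicate number as a block, a number that belongs to different mice and did not pair the livers (correlations of same-numbered livers from -0.148 to 0.0116), the block left 1 member called, Cyp2a22 at -1.85 on the log2 scale (edgeR adjusted p = 0.00359), and took the calls over all genes from 638 to 470. It ended the calls of Cyp2a4 (0.134), Hnf4a (0.107), Nfe2l2 (0.0773) and Ppara (0.0873) and added that of Gstm1 (0.0447).

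The Cyp2a genes summed gave 0.18 in place of the negative log2 fold changes of Cyp2a12 and Cyp2a22, and the Cyp2d genes summed 0.22 in place of that of Cyp2d26, by the construction of the sums. Total count scaling turned Cyp2j5 to -0.056, Cyb5a to -0.052 and Slco1b2 to -0.041. With a liver left out Cyp2d26 ranged from -0.086 to 0.0023, the latter without HKO replicate 3, and Cyb5a from -0.053 to 0.12. Cyp2a12, Cyp2d26, Cyp2j5, Cyb5a and Slco1b2 were not past the threshold of edgeR under any setting. The differences within the 6 pairs kept their direction with a prior count of 0.5 and with each liver left out. With 4 livers per genotype, the narrowest 95% interval of a member, that of Cyp2d22, still spanned -0.08 to 0.27 on the log2 scale, and low counts limit Cyp2d11 and Gsta1.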
